A study of Mus musculus with 6 samples.

Results

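ABC drug efflux pumps are membrane proteins that spend ATP to move drugs, drug conjugates and signalling molecules out of the cell. The genes followed here are 9 of the 53465 in the deposited table, chosen by symbol: Abcb1a, Abcb1b, Abcc1, Abcc2, Abcc3, Abcc4, Abcc5, Abcc10 and Abcg2. All 9 were found, each as a single row. A filter on low counts left 14038 genes for testing, and 7 of the 9 pump genes were among them. Abcc2 and Abcg2 had too few counts and are given by their counts only.

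The cells were 4T1, a mouse mammary carcinoma line, that had become resistant to axitinib, an inhibitor of VEGF receptor kinases. They came from lesions that grew back after surgery in mice dosed with axitinib at 100 mg/kg/day, and were then cultured for more than 2 months. Every library came from cells kept in 0.5 µM axitinib, so no group here is drug-naive or untreated. The cells were labelled with C12FDG, a β-galactosidase substrate that becomes fluorescent when cleaved, and sorted into a bright fraction (SM positive) and a dim fraction (SM negative), with 3 libraries of polyadenylated RNA for each. Both fractions derive from resistant cells of a single line, and the labels do not say whether the replicates were separate cultures or separate sorts, so p-values here reflect only how far these libraries spread, and that spread may be technical.

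P-glycoprotein, the best known of these pumps, is encoded by a single gene in human and by the neighbouring paralogs Abcb1a and Abcb1b in mouse. It takes up hydrophobic drugs from the membrane, among them many kinase inhibitors, and axitinib has been reported as a substrate. The Abcc genes encode multidrug resistance-associated proteins, which export mainly organic anions, glutathione and glucuronide conjugates, and nucleotides. Abcg2 encodes the breast cancer resistance protein, a half-transporter that works as a dimer and also carries many kinase inhibitors. All values below are transcript levels, and pump protein or transport was not measured.

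Library totals ran from 18733801 to 26533528 counts. Levels are given as CPM, which are counts scaled to a common library total, after TMM scaling, a correction for composition that changed no library total by more than 0.885%. The 8 markers of mammary epithelium were all expressed and summed to 4249 to 4570 CPM in the SM positive fraction and to 4525 to 4744 CPM in the SM negative fraction, with Krt7 and Krt18 highest. Of 27 markers of other cell types, 25 averaged under 1 CPM, among them all 7 endothelial and all 4 adipocyte markers, and Lum, Col3a1, Thy1, Emcn, Cd3e, Adgre1, Adipoq, Cidec and Lep had no count in any library. The exceptions were Pdgfra, at 5.07 ± 1.11 CPM in the SM positive and 3.55 ± 0.253 CPM in the SM negative fraction (SD, n = 3), and Cd68, at 4.89 ± 0.722 and 6.74 ± 1.10 CPM. None of the markers tested passed in edgeR without the replicate block (a term for the shared replicate number). With the block, 3 of the 8 epithelial markers fell, 37.5% of the list against 14.1% of all genes called in either direction, with edgeR adjusted p = 0.00727 for Cldn4, 0.0147 for Epcam and 0.0263 for Krt19. With the block Pdgfra also rose (edgeR adjusted p = 0.0423, against 0.246 without) and Cd68 fell (0.0148, against 0.233 without). In DESeq2 with the block the Cldn4 call held (adjusted p = 0.0162). Those of Epcam (0.0948), Pdgfra (0.427) and Cd68 (0.318) ended there, and Krt19 was given no adjusted p. The marker lists were chosen with earlier results of these data known. The part of these markers in the pump results, which were also called with the block alone, was not tested.

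The resistant cells carried an efflux repertoire dominated by a few pumps. To compare genes with each other, CPM were divided by the length of the longest coding transcript. On that scale Abcc1, which encodes MRP1, an exporter of glutathione conjugates and of several cytotoxic drugs, was highest at a mean of 16.6 CPM per kb over the 6 libraries. Abcb1b followed at 10.6 CPM per kb. Abcc5 and Abcc4, whose products export cyclic nucleotides and nucleotide analogues, stood at 3.55 and 3.21 CPM per kb. Abcc10 reached 0.752, Abcc3 0.366 and Abcb1a 0.192 CPM per kb. Abcg2 and Abcc2 were lowest, at 0.0194 and 0.00535 CPM per kb.

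Most steps in this order were larger than the spread between libraries. Abcc1 ranged from 15.2 to 17.4 CPM per kb and Abcb1b from 9.70 to 11.3 CPM per kb, so every library had more Abcc1 than any library had Abcb1b. Abcc5 (3.22 to 4.33 CPM per kb) and Abcc4 (2.67 to 3.91 CPM per kb) overlapped. With exon unions as the length, Abcc4 came before Abcc5, and the other 7 ranks were as given. Abcc3 (0.299 to 0.450 CPM per kb) overlapped Abcb1a (0.139 to 0.304 CPM per kb), and Abcg2 overlapped Abcc2. Abcc1 made up 48.5% ± 1.36 of the summed level per kb of the 9 genes in the SM positive fraction and 45.4% ± 0.534 in the SM negative fraction. Abcb1b made up 28.3% ± 1.36 and 31.9% ± 1.34 (SD, n = 3).

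**Figure D1:**
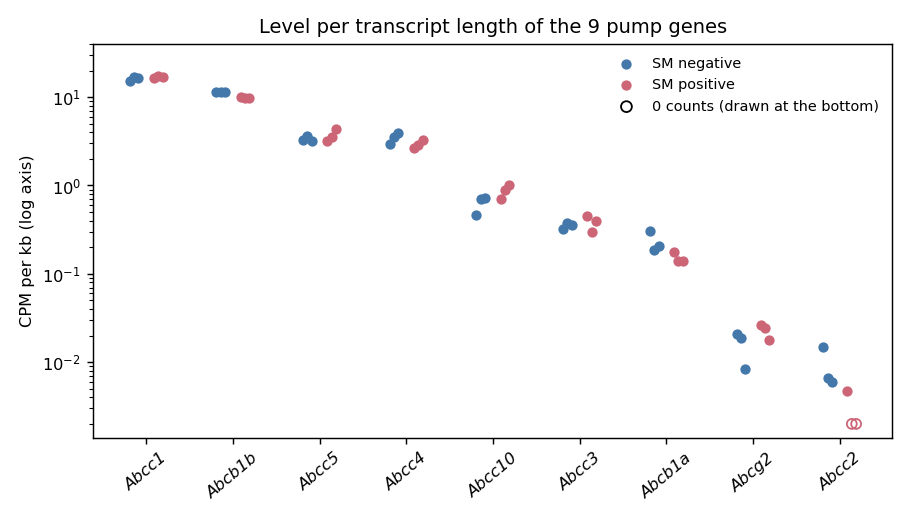
Level of each pump gene in CPM per kb of its longest coding transcript, on a log axis, with one point per library and open circles at the bottom for libraries with 0 counts. Abcc1 and Abcb1b lie highest in all 6 libraries, Abcc5 and Abcc4 overlap, and Abcg2 and Abcc2 lie lowest.

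Which pump genes were called between the fractions depended on the model. Without the replicate number in the model, 0 of the 7 tested genes passed an adjusted p of 0.05 in edgeR's quasi-likelihood test, and DESeq2 and limma-voom also called 0. Of all 14038 genes, 1.35% passed in that edgeR fit, 2.38% with DESeq2 and 1.23% with limma-voom. At an unadjusted p under 0.05, 2 of the 7 were counted, Abcb1b and Abcc10, against 13.6% of all genes. With the replicate number as a block, which compares SM positive and SM negative libraries that share a number, 3 of the 7 passed: Abcb1b and Abcc4 fell and Abcc10 rose in SM positive cells. In that fit 14.1% of all genes passed, 8.52% higher and 5.6% lower. The median log2 change of the 7 was 0.07 in both fits and that of all genes tested was -0.001 in both.

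The blocked calls had log2 changes of -0.20 (Abcb1b), -0.22 (Abcc4) and 0.47 (Abcc10), and depended on the tool and on each pair. With the block, limma-voom called Abcb1b, Abcc4 and Abcc10 as well, and 14.1% of all genes. DESeq2 with the block called 0 pump genes and 4.39% of all genes. Leaving out 1 pair from the blocked edgeR fit left 0 pump genes without pair 1, 1 without pair 2 (Abcb1b) and 0 without pair 3. In all of these fits Abcb1b and Abcc4 were lower and Abcc10 was higher in SM positive cells.

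**Figure D2:**
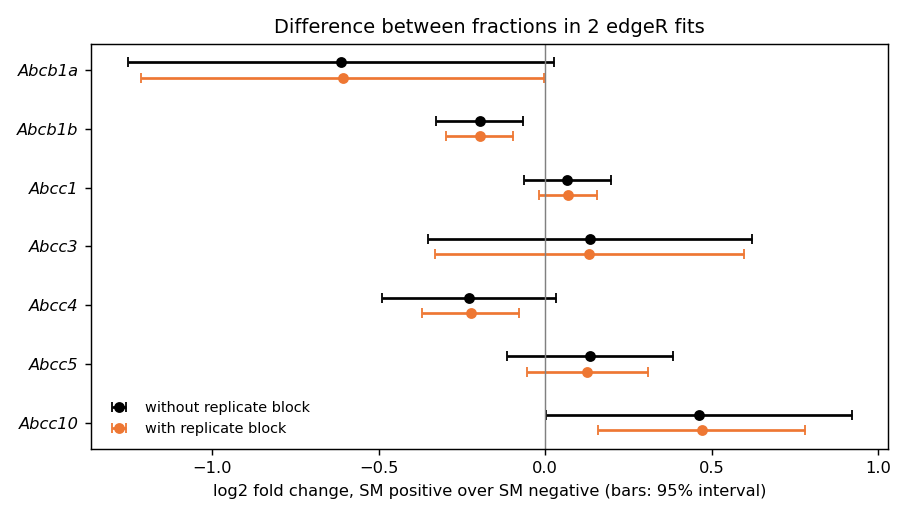
Log2 fold change of each tested pump gene, SM positive over SM negative, in edgeR fits without (black) and with (orange) the replicate number as a block; bars are 95% intervals. The point estimates hardly move between the fits, and the block narrows the intervals, least for Abcb1a and Abcc3.

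Abcb1b (ENSMUSG00000028970.9, chromosome 5, 8798147 to 8866315, plus strand, GRCm38), the more abundant P-glycoprotein gene, stood at 48.8, 48.6 and 48.8 CPM in SM negative replicates 1, 2 and 3. In SM positive replicates 1, 2 and 3 it stood at 43.2, 41.8 and 42.5 CPM. All SM positive libraries were below all SM negative libraries, and the SD was 0.722 CPM in the SM positive and 0.0917 CPM in the SM negative fraction. Both SDs are smaller than counting error alone would give at this depth, so neither measures the precision of the assay. The log2 change was -0.20 ± 0.0586 (SE) without the block (adjusted p = 0.169, 95% interval -0.33 to -0.07). With the replicate block it was -0.20 ± 0.0487 (SE), with an adjusted p of 0.00962 in edgeR. By pair, the log2 ratio of SM positive to SM negative was -0.18, -0.22 and -0.20, so all 3 pairs went the same way. Without the block, SM negative cells had 1.15-fold the Abcb1b level of SM positive cells. Over the other 13 fits without the block its adjusted p ran from 0.156 to 0.389.

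Abcb1a (ENSMUSG00000040584.8, chromosome 5, 8660077 to 8748575, plus strand), the paralog that predominates in the mouse blood-brain barrier and intestine, was barely expressed. It had 38.19, 17.36 and 21.88 expected counts in SM negative and 23.34, 14.86 and 13.96 in SM positive replicates 1, 2 and 3. In CPM these were 1.52, 0.927 and 1.04 against 0.876, 0.694 and 0.707, again with all SM positive libraries below all SM negative ones. The log2 change was -0.61 ± 0.289 (SE) with an adjusted p of 0.384 in edgeR, and 0.18 with the replicate block. Its 95% interval without the block, -1.25 to 0.03, covered both a large fall and no change. With the block it was -1.21 to -0.0033, which ends just below 0. Neither interval is adjusted for the number of genes tested. Abcb1a and Abcb1b were the 2 pump genes without overlap between fractions, both lower in SM positive cells. Of all genes tested, 9.48% were lower with no overlap.

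The P-glycoprotein paralogs share sequence, which limits how well their counts can be separated. Of the distinct 31-base stretches in Abcb1a transcripts, 21.7% also occur in Abcb1b, and 14.8% of those in Abcb1b also occur in Abcb1a. The deposited Abcb1a counts were not whole numbers in any library, as happens when a counter divides ambiguous reads. Abcb4, the third gene of the cluster, which encodes a phosphatidylcholine translocator and shares further stretches, had at most 2 counts in any library. Abcb1b took 98.2% ± 0.203 of the summed Abcb1a and Abcb1b counts in the SM positive and 97.7% ± 0.612 in the SM negative fraction (exact 2-sided permutation p = 0.2, where 0.1 is the smallest that 3 against 3 libraries allow). The fractions overlapped in this share, and without SM negative replicate 1 the difference dropped from 0.572 to 0.224 percentage points. An antisense gene, Gm5106, overlaps 143 exonic bases of Abcb1b and had 3.02 to 9.32 counts per library, against 839.74 to 1226.38 for Abcb1b.

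Abcc1 (ENSMUSG00000023088.16, chromosome 16, 14361558 to 14475737, plus strand), the most abundant pump gene, did not pass in either fit. It stood at 103.5, 113.9 and 112.1 CPM in SM negative and 110.8, 118.4 and 115.8 CPM in SM positive replicates 1, 2 and 3. The fractions overlapped, although each pair had the higher value in SM positive cells, with log2 ratios of 0.10, 0.06 and 0.05. The log2 change was 0.07 ± 0.0586 (SE; edgeR adjusted p = 0.688, and 0.322 with the replicate block). The 95% interval with the block was -0.02 to 0.15 on the log2 scale.

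Abcc4 (ENSMUSG00000032849.14, chromosome 14, 118482692 to 118706219, minus strand) encodes MRP4, an exporter of cyclic AMP, prostaglandins and nucleotide analogues. Its level was 17.0, 20.0 and 22.4 CPM in SM negative and 15.3, 16.5 and 18.9 CPM in SM positive replicates 1, 2 and 3. The fractions overlapped, because replicate 3 of SM positive exceeded replicate 1 of SM negative. Within each pair the SM positive library was lower, by log2 ratios of -0.16, -0.28 and -0.24. The log2 change was -0.23 ± 0.118 (SE; edgeR adjusted p = 0.437) without and -0.22 ± 0.0696 (SE; edgeR adjusted p = 0.0362) with the replicate block. In the blocked fits with 1 pair left out the edgeR adjusted p was 0.0985, 0.13 and 0.181 without pairs 1, 2 and 3.

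Abcc10 (ENSMUSG00000032842.13, chromosome 17, 46303221 to 46328352, minus strand) encodes MRP7, which is known to confer resistance to taxanes and vinca alkaloids. It was measured with 62 to 106 counts per library. Levels were 2.47, 3.74 and 3.79 CPM in SM negative and 3.71, 4.67 and 5.37 CPM in SM positive replicates 1, 2 and 3. The lowest SM positive library lay just under the 2 higher SM negative libraries, and each pair was higher in SM positive cells, with log2 ratios of 0.59, 0.32 and 0.50. The log2 change was 0.46 ± 0.207 (SE; edgeR adjusted p = 0.364) without and 0.47 ± 0.149 (SE; edgeR adjusted p = 0.0401) with the replicate block, the largest rise among the 7 tested pump genes in either fit. Without the block this is 1.38-fold. In the blocked fits with 1 pair left out the edgeR adjusted p was 0.219, 0.0676 and 0.193 without pairs 1, 2 and 3. Dlk2, on the opposite strand, overlaps 51 exonic bases of Abcc10 and averaged 13.7 ± 2.00 CPM in the SM positive and 13.3 ± 1.96 CPM in the SM negative fraction (SD, n = 3). Whether counting used strand is not given in the sources used here, and its part in the Abcc10 values was not tested.

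**Figure D3:**
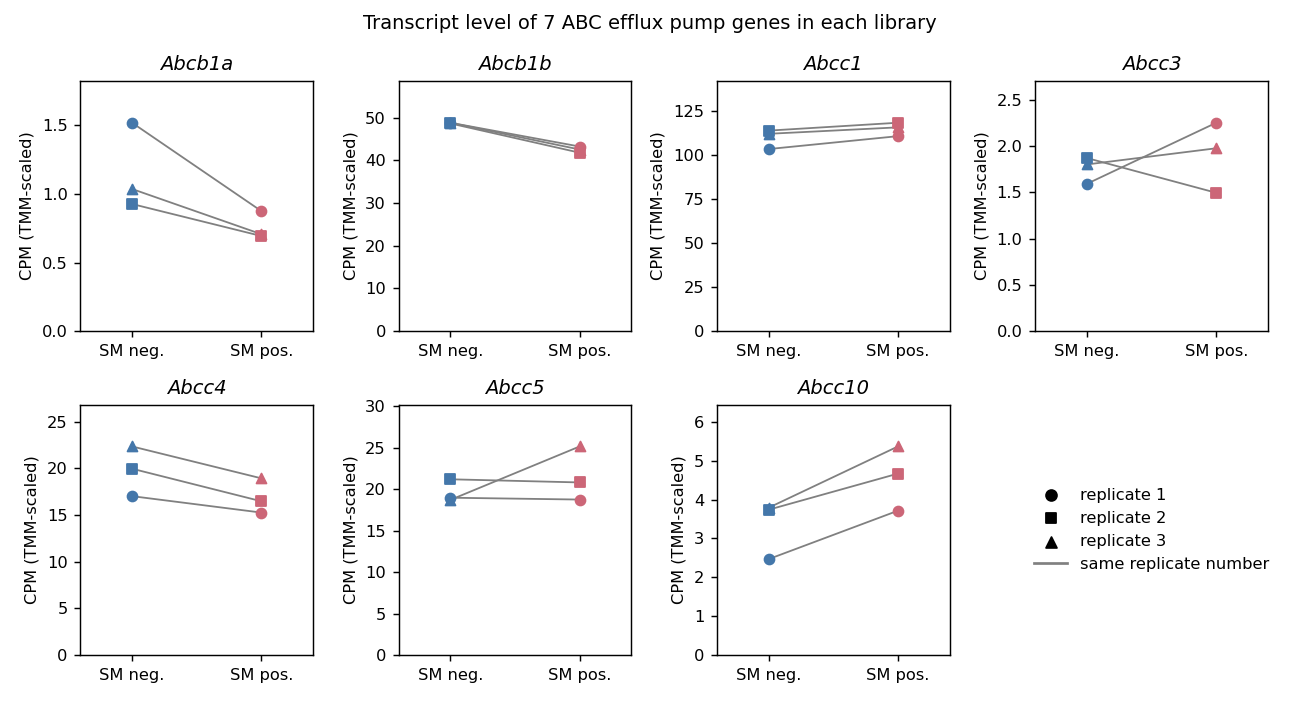
TMM-scaled CPM of the 7 tested pump genes in each library, with lines joining libraries of the same replicate number; each axis starts at 0. All 3 lines go down for Abcb1a, Abcb1b and Abcc4 and up for Abcc1 and Abcc10, while those of Abcc3 and Abcc5 cross.

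Abcc5 and Abcc3 showed no common direction among pairs. Abcc5 (chromosome 16, 20331303 to 20426394, minus strand), which encodes MRP5, stood at 19.0, 21.2 and 18.7 CPM in SM negative and 18.8, 20.8 and 25.2 CPM in SM positive replicates 1, 2 and 3. Replicate 3 of SM positive was the highest library, and the other 5 lay within a narrow band. Its log2 change was 0.13 ± 0.113 (SE; edgeR adjusted p = 0.671), and in the blocked fit without pair 3 it was -0.021. Abcc3 (chromosome 11, 94343295 to 94392997, minus strand), which encodes MRP3, an exporter of glucuronides and bile salts, stood at 1.59, 1.87 and 1.80 CPM in SM negative and 2.25, 1.49 and 1.98 CPM in SM positive replicates 1, 2 and 3. Its log2 change was 0.13 ± 0.220 (SE; edgeR adjusted p = 0.851), and the 95% interval of -0.35 to 0.62 does not exclude a change of either sign. Across the 7 tested genes, 5 had all 3 pairs in one direction, against 46.5% of all genes tested.

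Abcg2 and Abcc2 were at the limit of detection. Abcg2 (ENSMUSG00000029802.13, chromosome 6, 58584523 to 58695676, plus strand) had 3, 2 and 1 counts in SM negative and 4, 3 and 2 counts in SM positive replicates 1, 2 and 3. The summed counts, 9 against 6, give an SM positive to SM negative ratio of 1.44 with an exact 95% interval of 0.457 to 4.91. Abcc2 (ENSMUSG00000025194.5, chromosome 19, 43782192 to 43840740, plus strand), which encodes MRP2, an exporter of conjugates at the apical membrane of liver and kidney cells, had 3, 1 and 1 counts in SM negative and 1, 0 and 0 in SM positive replicates. Its ratio was 0.192, with an exact 95% interval of 0.00405 to 1.71. A count of 0 allows up to 3 counts, which is 0.14 and 0.152 CPM in SM positive replicates 2 and 3. A difference between fractions was not detectable at this depth for either gene, and these intervals and limits cover counting error only.

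The ratio of pumps within a library does not depend on how libraries are scaled. Abcc1 had 2.12, 2.34 and 2.30 counts per Abcb1b count in SM negative and 2.56, 2.83 and 2.72 in SM positive replicates 1, 2 and 3. The fractions did not overlap (2.25 ± 0.118 against 2.71 ± 0.136, SD, n = 3; exact 2-sided permutation p = 0.1, the smallest possible). Abcc10 had 5.06, 7.69 and 7.77 counts per 100 Abcb1b counts in SM negative and 8.59, 11.2 and 12.6 in SM positive replicates (exact 2-sided permutation p = 0.1). Both ratios were chosen after the values were seen. They share Abcb1b, which was lower in every SM positive library, as denominator, so both repeat that difference in part.

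The sequence just upstream of the 3 genes that passed with the block is shown because they are the pump genes with a call, and to set their base composition and motifs side by side. Each run holds the 250 bases before the RefSeq transcription start (GRCm38.p6), on the gene's own strand and in the direction of transcription. Capitals mark matches to a short motif on either strand. The motifs searched were the GC box GGGCGG bound by Sp1-type factors, the CCAAT box CCAAT, the E-box CACGTG, the xenobiotic response core GCGTG of the Ah receptor, the antioxidant response element TGACNNNGC, the AP-1 site TGANTCA and the TATA box TATAAA.
Abcb1b, chr5:8797897-8798146, plus strand: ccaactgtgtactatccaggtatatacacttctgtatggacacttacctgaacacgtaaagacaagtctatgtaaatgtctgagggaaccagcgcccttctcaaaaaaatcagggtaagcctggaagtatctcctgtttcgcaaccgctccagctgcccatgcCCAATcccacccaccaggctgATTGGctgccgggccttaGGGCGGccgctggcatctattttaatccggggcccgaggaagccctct
Abcc4, chr14:118706220-118706469, minus strand: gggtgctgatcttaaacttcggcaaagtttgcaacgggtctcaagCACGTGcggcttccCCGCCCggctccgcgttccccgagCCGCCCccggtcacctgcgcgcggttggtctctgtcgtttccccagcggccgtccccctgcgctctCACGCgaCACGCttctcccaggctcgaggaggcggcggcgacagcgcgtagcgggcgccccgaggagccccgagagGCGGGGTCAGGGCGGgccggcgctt
Abcc10, chr17:46328024-46328273, minus strand: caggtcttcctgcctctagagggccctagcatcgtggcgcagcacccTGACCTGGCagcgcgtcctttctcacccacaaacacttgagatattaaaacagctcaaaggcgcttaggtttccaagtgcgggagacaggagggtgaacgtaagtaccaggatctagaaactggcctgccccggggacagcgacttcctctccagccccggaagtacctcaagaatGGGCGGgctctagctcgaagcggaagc
The Abcb1b window held 2 CCAAT boxes, on opposite strands, and 1 GC box, with 52.8% G and C and 9 CpG. The Abcc4 window held 3 GC boxes, 1 E-box, 2 xenobiotic response cores and 1 antioxidant response element, which directly adjoins a GC box in the printed run, with 72% G and C and 35 CpG. The Abcc10 window held 1 antioxidant response element and 1 GC box, with 58% G and C and 13 CpG, and its RefSeq start lies 329 bases inside the GENCODE gene. No TATA box or AP-1 site was matched in these 3 windows. Of 32851 RefSeq windows of this length, 32.7% held the GC box, 33.8% the CCAAT box, 6.02% the E-box, 28.2% the xenobiotic response core, 10.2% the antioxidant response element, 6.75% the AP-1 site and 12.4% the TATA box. The median G and C content was 52.4%. A match is a run of letters and does not show that a factor binds there. Windows were found for 7 of the 9 pump genes; the Abcb1a window starts 92986 bases from the GENCODE gene start and is not printed.

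Other ABC transporters gave few calls. Of 44 listed, 18 were tested; 0 passed without the block, and with it 2 rose and 0 fell, 11.1% of the list against 14.1% of all genes. Tap1 encodes a subunit of the transporter that supplies peptides for MHC class I. It had 51.5 ± 3.20 CPM in the SM positive and 43.8 ± 1.94 CPM in the SM negative fraction. Its edgeR adjusted p was 0.00336 with the replicate block and 0.168 without. Abca3, a lipid transporter of lamellar bodies and lysosome-related compartments, had 72.9 ± 4.43 and 65.0 ± 1.27 CPM (edgeR adjusted p = 0.0171 with the replicate block, 0.266 without). Both calls ended in DESeq2 with the block (adjusted p = 0.109 for Tap1 and 0.255 for Abca3) and in blocked edgeR without pair 1 (0.115 and 0.326). The median log2 change of the 18 was 0.04, close to that of the pump genes.

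Regulators linked to pump expression included genes that passed without the block. Of 36 listed, 30 were tested; 3 rose and 1 fell without the block, 13.3% against 1.35% of all genes, and with it 10 rose and 3 fell, 43.3% against 14.1% of all genes. The list's median log2 change was 0.02. This list was chosen with earlier results of these data known, so its shares are not a test of regulators as a set. Ahr, the receptor for planar aromatic compounds, rose from 22.8 ± 1.79 to 34.1 ± 2.24 CPM (edgeR adjusted p = 0.0125). Vdr, the vitamin D receptor, which can induce Abcb1 and Abcc genes, rose from 5.92 ± 0.788 to 11.8 ± 0.907 CPM (edgeR adjusted p = 0.00704). Foxo1, a forkhead factor restrained by insulin signalling, rose from 34.7 ± 1.57 to 44.9 ± 3.45 CPM (edgeR adjusted p = 0.0459). Trp53, which encodes p53, fell from 53.4 ± 3.72 to 41.8 ± 0.531 CPM (edgeR adjusted p = 0.0349). These 4 calls did not all survive the loss of a library: Trp53 lost its call without any 1 of the 6 (adjusted p from 0.0677 to 0.148), Foxo1 without any library but SM positive replicate 1 (up to 0.167), Ahr without SM positive replicate 3 or any 1 SM negative library (up to 0.0567) and Vdr without SM negative replicate 2 (0.0538). The Foxo1 call also ended in limma-voom (0.0549), without robust estimation (0.0543), with unscaled library totals (0.0518) and under a filter of 1 CPM in 3 libraries (0.0505). In edgeR with the block and all libraries, the adjusted p was 8.71e-07 for Ahr, 1.45e-06 for Vdr, 5.08e-05 for Foxo1 and 6.99e-05 for Trp53. DESeq2 with the block also called these genes (adjusted p = 1.01e-05, 2.11e-05, 0.0034 and 0.00258). With the replicate block Jun, a subunit of AP-1, rose (200.5 ± 36.4 against 163.3 ± 35.8 CPM, edgeR adjusted p = 3.4e-05) and Myc and Pim1 fell. Myc had 251.4 ± 15.0 CPM in the SM positive and 282.9 ± 26.3 CPM in the SM negative fraction (edgeR adjusted p = 0.00886 with the replicate block), and Pim1, a kinase reported to stabilise Abcg2 and P-glycoprotein, had 11.4 ± 1.08 and 14.1 ± 1.52 CPM (edgeR adjusted p = 0.0237 with the replicate block). The Pim1 call ended in DESeq2 with the block (adjusted p = 0.379) and in blocked edgeR without any 1 pair (0.0545 to 0.159). The Myc call ended in blocked edgeR without pair 2 (0.0575) or pair 3 (0.0851). Of the genes for PXR and CAR, the classical drug sensors of liver, Nr1i2 did not pass the low-count filter and Nr1i3 had 2.51 ± 0.423 CPM in the SM positive and 1.92 ± 0.605 CPM in the SM negative fraction (edgeR adjusted p = 0.584); both were named after their values were seen.

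Carriers that bring drugs in and enzymes that modify them gave 1 call each without the block. Among 39 carriers, 15 were tested and 1 rose in both fits, 6.67% of the list against 1.35% of all genes without the block and 14.1% with it. This was Slc29a1, the equilibrative nucleoside transporter ENT1, which went from 125 ± 4.30 to 151 ± 3.72 CPM (edgeR adjusted p = 0.0364), a call lost without any 1 of the 6 libraries (adjusted p from 0.0908 to 0.151). Among 33 drug metabolism genes, 9 were tested and 8 of these had a positive log2 change, against 6987 of all 14038 genes tested. Of the 9, 11.1% passed without the block and 44.4% with it, against 1.35% and 14.1% of all genes. Aldh3a1, an aldehyde dehydrogenase, rose from 4.24 ± 0.368 to 7.98 ± 0.601 CPM (edgeR adjusted p = 0.0106), a call lost without SM positive replicate 3 or any 1 SM negative library (adjusted p up to 0.0537). Slc29a1 and Aldh3a1 both passed with the block and all libraries in edgeR (adjusted p = 0.000176 and 3.65e-05) and in DESeq2 (0.000402 and 0.00296). With the replicate block Ephx1, a microsomal epoxide hydrolase, and Por, which passes electrons to cytochromes P450, rose too, and the sulfotransferase gene Sult2b1 fell. These 3 calls ended in DESeq2 with the block (adjusted p = 0.438, 0.229 and 0.413 for Ephx1, Por and Sult2b1) and in blocked edgeR without pair 1 (0.392, 0.507 and 0.148) or pair 3 (0.157, 0.0655 and 0.271), and that of Por also without pair 2 (0.0556). The median log2 change of the 9 was 0.31. The carrier and metabolism lists were chosen with earlier results of these data known, so their shares do not test either set.

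The list of glutathione supply and transfer and that of pump scaffolds and trafficking gave 0 calls without the block. Of 22 tested glutathione genes, 2 rose with the block, Mgst1 (6.92 ± 0.258 against 5.24 ± 0.0953 CPM, edgeR adjusted p = 0.0252) and Gsr, the glutathione reductase gene (135.1 ± 3.48 against 123.3 ± 3.12 CPM, edgeR adjusted p = 0.0364), and 1 fell, Gsta1, which was named after its values were seen. That is 13.6% of the list, against 14.1% of all genes. The Mgst1 and Gsr calls ended in DESeq2 with the block (adjusted p = 0.415 and 0.239) and in blocked edgeR without any 1 pair (0.0653 to 0.163 and 0.0768 to 0.262). Of 18 tested scaffold and trafficking genes, Slc9a3r1, which encodes the PDZ scaffold NHERF1, rose with the block, and Pim1 and Derl1, a component of endoplasmic reticulum quality control, fell. They made up 16.7% of that list. The Slc9a3r1 and Derl1 calls ended in DESeq2 with the block (adjusted p = 0.430 and 0.0740) and, like that of Pim1, in blocked edgeR without any 1 pair (0.0525 to 0.312 and 0.0516 to 0.183).

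**Figure D4:**
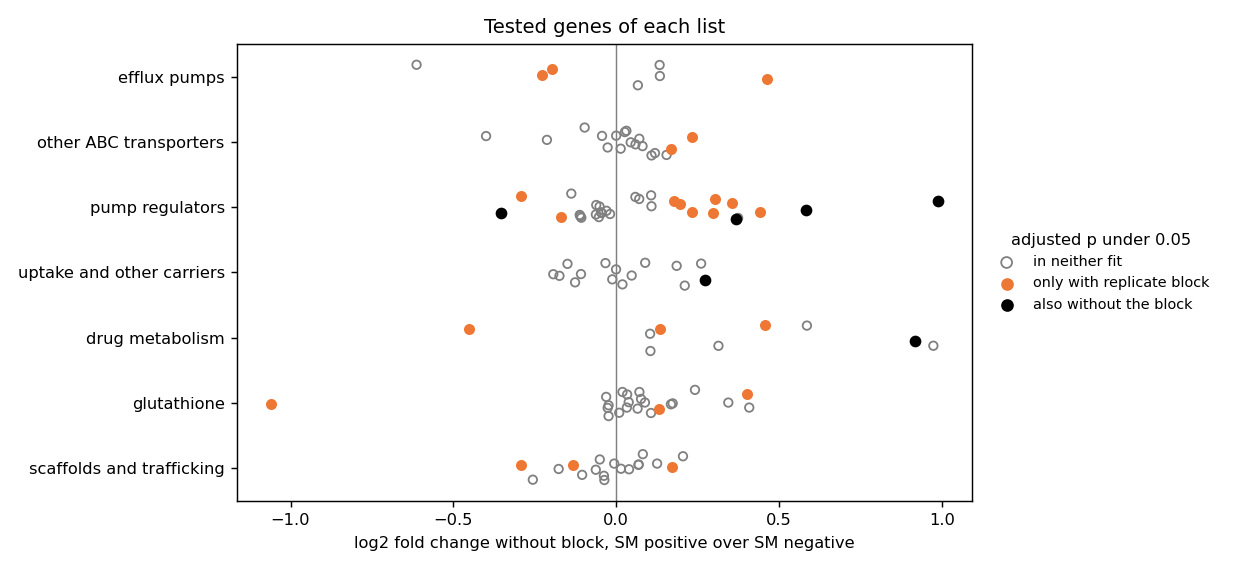
Log2 fold change without the block for every tested gene of the pump genes and 6 related lists; each point is a gene, filled where the adjusted p was under 0.05 with the replicate block only (orange) or also without it (black). The 3 orange pump genes are Abcc4, Abcb1b and Abcc10 from left to right, and black points occur among regulators, carriers and drug metabolism genes.

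For each of the 3 pump genes that passed with the block, the genes most like it over the 6 libraries were found by Pearson correlation of log2 CPM among 9805 genes. Closest to Abcb1b were Cops8 (r = 0.991), Derl1 (r = 0.990) and Il24 (r = 0.988). Closest to Abcc4 were Nol9 (r = 0.991), Lars (r = 0.988) and Myc (r = 0.986). Among the closest to Abcc10 were Cdv3 (r = 0.998) and Fgd3 (r = 0.990). Correlation does not measure the size of a change. Without the block the log2 change was -0.06 for Cops8, -0.13 for Derl1 and -0.93 for Il24 (edgeR adjusted p = 0.649, 0.247 and 0.00239). For Cdv3 and Fgd3 it was 0.06 and 0.26 (edgeR adjusted p = 0.690 and 0.386). The 6 points share 2 fractions and 3 replicate numbers, and 169, 140 and 241 of the 9805 genes had r over 0.9 with Abcb1b, Abcc4 and Abcc10.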

How the data were processed

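Polyadenylated RNA of 6 libraries was sequenced. The authors deposited expected counts, 1 row per gene and 1 column per library; the submitters' processing notes name FastQC 0.11.5, STAR 2.6.0a, RSEM 1.3.1 and GRCm38, and the annotation release and strand setting are, for this table, not given in the sources used here. Symbols came from GENCODE M21 (GRCm38), matching 99.6% of identifiers without version. Expected counts were rounded for tests and filtered with edgeR's filterByExpr (edgeR 4.0.16, R 4.3.3), leaving 14038 genes. These were scaled by TMM and tested with the robust quasi-likelihood F test with Benjamini-Hochberg adjustment over all genes at 0.05; the SE is the log2 change divided by the square root of F, with either sign dropped. DESeq2 1.42.0 and limma-voom (limma 3.58.1) were alternatives. The scripts were tested on simulated data.

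The replicate numbers were taken to pair the libraries: deviations from fraction means correlated at 0.22, 0.28 and 0.196 between libraries with the same number (minimum 0.1) and between -0.175 and -0.0435 otherwise. Deviations cancel out within a fraction, so positive same-number values make the others negative on average. The negative values are therefore not a separate contrast. The labels do not say what the numbers mark. The pump genes and the 11 other lists were chosen with earlier results of these data known. Named genes were the 9 pump genes, up to 3 rising and 3 falling genes per list and fit by smallest p among those averaging 1 CPM or more, the 2 highest markers of each cell type, and the 3 genes most correlated with each pump gene past the threshold (mean of at least 5 CPM). The value of 1 gene named by this rule is not reported here. Of the listed symbols, Ube2r1 was not matched. Promoter windows are RefSeq's.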

Additional observations from a re-analysis of the deposited data

How the results depend on the processing

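In all fits without the replicate block (12 to 13 alternatives per tested pump gene, covering scaling, filters, tools and each library left out), 0 pump genes passed. With the block, edgeR and limma-voom each called 3, and blocked edgeR called 1 without pair 2 and 0 without pair 1 or 3. The count over all genes was 190, and it was 663 with no filter, 334 with DESeq2, 1982 with the replicate block, 616 with DESeq2 and the block and 1978 with limma-voom and the block. With 1 library left out it ran from 25 to 123, and it was 705, 1793 and 886 in blocked fits without pair 1, 2 and 3. The cause of these shifts was not tested. The log2 change of Abcc3 ran from -0.016 (without SM positive replicate 1) to 0.28 with 1 library left out, against 0.13 with all, and was -0.087 with the block and without pair 1, and that of Abcc5 turned from 0.13 to -0.021 with the block and without pair 3; neither was a call. The other 5 tested pump genes kept their sign in every fit run. The block as a sign-flip over pairs gave the Abcb1b share difference of 0.572 points an exact p of 0.25, the smallest possible. The Abcc1 to Abcb1b difference ran from 0.386 to 0.525 with each library left out. Depth limits Abcg2 and Abcc2 (at most 4 counts per library). Abcb1a, Abcc3 and Abcc10 had the fewest counts and the widest intervals of the tested pump genes, and the part of depth in that width was not tested.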
